A study of Mus musculus with 9 samples.

Results

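The main replication-dependent histone gene clusters of the mouse lie in a pair of stretches of mm9, chromosome 13 from 21000001 to 24000000 and chromosome 3 from 96000001 to 97000000. All regions of the 5 deposited lists whose midpoint fell in these windows were taken, 670 of 202373 regions in all. They comprised 495 of 186959 regions of the plasmid library (input regions), 162 of 9757 RARA peaks, 9 of 4674 enhancers of mouse embryonic stem cells (mESC enhancers), 3 of 601 LIF-dependent enhancers and 1 of 382 RA-induced enhancers. The members were chosen by the positions at which the authors' calls of plasmid, reporter and RARA signal had placed a region, with the crowding of RARA peaks there already known, so the numbers of regions and overlaps in the windows are a description. That these stretches hold the histone genes was taken from the known place of the clusters and was not checked in mm9.

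The lists came from E14 cells, an established mouse embryonic stem cell line. FAIRE-STARR-seq reporter RNA was measured after withdrawal of leukemia inhibitory factor (LIF) and 1 µM retinoic acid (RA) for 4 h (3 biological replicates), or with LIF for 4 h (3 biological replicates), and in both cases the reporters carried accessible DNA isolated from RA-treated cells. The plasmid library itself was 1 sample, and RARA ChIP-seq after 4 h of RA was 1 sample with 1 ChIP input. Each biological replicate combined 4 transfections, and the reporters are plasmids, outside the chromosome. The enhancer lists were called on merged replicates, so no region has a value per sample, no spread between cultures can be given and no difference below was tested. Intervals are 95% intervals for counting error over regions (Wilson for shares, order-statistic for medians), and neighbouring regions are not independent.

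Replication-dependent histone genes encode the H1 linker histone and the H2A, H2B, H3 and H4 core histones that package newly made DNA in S phase. Their short genes have no introns, and their mRNAs end in a stem-loop in place of a poly(A) tail. The genes are transcribed together in a nuclear compartment, the histone locus body. RARA is a nuclear receptor that binds DNA with a retinoid X receptor partner, classically at direct repeats of AGGTCA, and switches target genes on when RA is bound.

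No mm9 genome was used here, so the histone genes were not placed on the regions and the sequences of the regions are not shown. The gene order was taken from RefSeq for GRCm38.p6, without its coordinates. There chromosome 13 held 56 histone genes, pseudogenes included, in 4 blocks separated by more than 5 other genes. The blocks, in order, held 19 genes (H2bc13 to H4bc24), 5 genes (H2ac12 to H2bc11), 30 genes (H4c8 to H1f1) and 2 genes (H2bc1 and H2ac1). The first and the third block each counted 1 pseudogene. Between the first and second blocks lay 39 genes, of which 31 were tRNA genes. Between the second and the third lay 147 genes, of which 75 were vomeronasal receptor genes or pseudogenes (Vmn1r) and 46 were tRNA genes. Chromosome 3 held 1 block of 10 histone genes, from H2ac21 to H2bc18.

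Because RARA peaks crowded in the histone windows, the promoters of these genes were searched for the receptor's hexamer and for the usual core elements of histone promoters. RefSeq promoter sequences matched 59 of the 66 listed histone genes, a list that includes the pseudogenes (60 promoters). The 250 bases before each start were searched on both strands, for exact spellings only, so variants of an element were not counted. The hexamer AGGTCA was found in 1 of 60 histone promoters (1.67%, 0.295 to 8.86%), against 14.0% of all 32851 promoters (13.7 to 14.4%). Direct repeats of it with a spacing of 1, 2 or 5 bases (AGGTCANAGGTCA, AGGTCANNAGGTCA and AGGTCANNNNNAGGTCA) were found in 0 of 60, and in 11, 3 and 3 of all promoters. Exact repeats are so rare among all promoters that the 0 of 60 cannot set the histone promoters apart. The CCAAT box, bound by NF-Y, was found in 50 of 60 histone promoters (83.3%) and 33.8% of all promoters. The TATA box, searched as TATAAA, was found in 28 of 60 (46.7%) and 12.4%. The octamer ATTTGCAT, bound by OCT1 and other POU factors, was found in 13 of 60 (21.7%), all of them among the 33 H2A and H2B promoters, and in 1.60% of all promoters. H4bc24 was counted with H2B because an older symbol of it, Hist1h2br, is an H2B name, and without it the octamer count was 13 of 32. The median G and C content was 44.8% in histone promoters and 52.4% in all. Promoters that share DNA, as H2ac8 and H2bc8 do below, count a shared site once for each gene. The promoters are therefore not independent sequences, and the intervals do not allow for this. These are matches of letters in the named windows and were not tied to the RARA peaks.

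The promoters of 1 gene of each histone family are shown, the first in gene order with most of the core elements, together with the promoter that holds the hexamer (GRCm38.p6, chromosome 13; H2ac8, H1f5 and H3c11 from the minus strand, the others from the plus strand). Each runs 5′ to 3′ and ends at the base before the start, over 150 bases, or 250 for H3c11. Capitals mark the CCAAT box, the TATA box, the octamer and the receptor hexamer as spelled above, on either strand. H2ac8 and H2bc8 are read in opposite directions from a shared stretch of 179 bases, so that the same octamer appears in both. The TATA box marked in H2ac8 is likewise the one marked in H2bc8, read from the other strand. The same holds for the CCAAT box marked as ATTGG in H2ac8.
H2ac8: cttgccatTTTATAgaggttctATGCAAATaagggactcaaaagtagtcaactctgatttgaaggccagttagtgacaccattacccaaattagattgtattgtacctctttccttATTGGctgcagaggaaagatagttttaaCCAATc
H2bc8: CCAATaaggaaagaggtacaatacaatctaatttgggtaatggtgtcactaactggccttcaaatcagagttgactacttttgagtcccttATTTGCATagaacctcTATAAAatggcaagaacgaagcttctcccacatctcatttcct
H1f5: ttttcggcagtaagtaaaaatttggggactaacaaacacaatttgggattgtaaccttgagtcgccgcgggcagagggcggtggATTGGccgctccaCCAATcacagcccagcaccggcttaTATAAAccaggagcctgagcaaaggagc
H3c10: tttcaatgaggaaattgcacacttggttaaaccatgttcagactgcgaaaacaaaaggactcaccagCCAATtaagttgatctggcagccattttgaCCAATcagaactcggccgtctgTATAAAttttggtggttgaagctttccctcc
H4c4: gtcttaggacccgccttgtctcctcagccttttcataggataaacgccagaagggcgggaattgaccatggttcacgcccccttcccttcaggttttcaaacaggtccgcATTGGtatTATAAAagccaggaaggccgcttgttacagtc
H3c11: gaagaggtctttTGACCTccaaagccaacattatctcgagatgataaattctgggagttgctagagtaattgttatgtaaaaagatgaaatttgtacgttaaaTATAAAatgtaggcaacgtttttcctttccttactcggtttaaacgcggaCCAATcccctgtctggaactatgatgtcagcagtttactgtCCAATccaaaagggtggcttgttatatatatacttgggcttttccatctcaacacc
In H3c11 the hexamer, read as TGACCT, starts 238 bases before the start of the gene.

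RARA peaks were frequent in library DNA of the histone windows. Of the 495 input regions there 105 overlapped an RARA peak by at least 1 bp (21.2%, 17.8 to 25.0%), against 2.94% of all input regions. In the chromosome 13 window the share was 25.8% (79 of 306; 21.2 to 31.0%), against 2.60% on the rest of chromosome 13 (217 of 8342). In the chromosome 3 window it was 13.8% (26 of 189; 9.56 to 19.4%), against 2.56% on the rest of chromosome 3 (240 of 9377). Both windows were above the rest of their own chromosome, whose value lay below the window interval in each case.

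Fold enrichment in the plasmid library was somewhat higher in the windows than in the whole list, and close to the rest of their chromosomes. The fold enrichment of input regions, the authors' value at the summit, had a median of 5.999 in the windows (5.67 to 6.33; range 2.01 to 26.0). In all input regions it was 5.48, below the window interval. By chromosome the median fold was 5.999 in the chromosome 13 window (5.67 to 6.63) and 5.78 in the chromosome 3 window (5.33 to 6.33). On the rest of either chromosome it was 5.67, a value that met both intervals. The median −log10 q of window input regions was 12.97, against 9.17 in the whole list. Their median width was 332 bp, against 327 bp in the whole list. Several summits were listed in 8.89% of window input regions (44 of 495) and in 4.03% of all. The RARA share was then read within quartiles of the input fold. In the lowest quartile of input fold, 15 of 103 window regions had an RARA peak (14.6%, 9.03 to 22.6%), against 1.32% of all regions of that quartile. In the next quartile it was 18 of 110 (16.4%, 10.6 to 24.4%) against 1.68%, and in the third 31 of 132 (23.5%, 17.1 to 31.4%) against 2.41%. In the highest quartile it was 41 of 150 (27.3%, 20.8 to 35.0%) against 6.33%. The windows were above the whole list in each of the 4 quartiles.

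**Figure D1:**
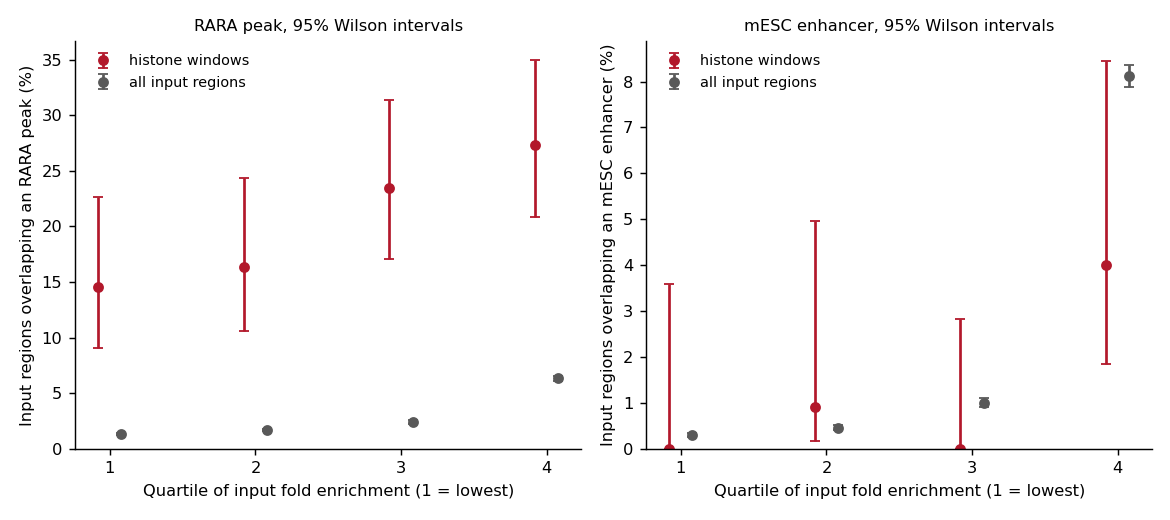
Share of input regions that overlapped an RARA peak (left) or an mESC enhancer (right), in percent, by quartile of the input fold enrichment, for the 495 input regions of the histone windows (red) and all 186959 input regions (grey), with 95% Wilson intervals. For RARA the window share runs between 14.6% and 27.3% and lies above the grey points in every quartile, while for enhancers the window intervals are wide and meet the grey points.

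RARA peaks of the histone windows had a higher median fold enrichment than the whole list, without reaching its top. The median RARA fold enrichment was 4.73 in the windows (3.82 to 5.58; quartiles 3.14 and 6.64) and 3.06 in all peaks (3.04 to 3.10). It was 5.53 in the chromosome 13 window (4.28 to 6.11) and 3.77 in the chromosome 3 window (3.24 to 4.49), against 3.04 on the rest of either chromosome. A fold of 5 or more was listed for 78 of the 162 window peaks (48.1%, 40.6 to 55.8%), against 13.6% of all. The top decile of the list, from a fold of 5.78 upward, held 65 of the 162 (40.1%, 32.9 to 47.8%), against 10% by construction. The top percent of the list began at a fold of 13.7, and 0 of 162 window peaks reached it, which allows a share of up to 1.85% (3 counts of 162, the limit used for counts of 0). The highest fold was 11.2 in the chromosome 13 window and 8.39 in the chromosome 3 window, against 98.7 in the whole list. Window peaks ran from a fold of 1.95 to 11.2, so they spanned low to high values of the list below its top percent.

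**Figure D2:**
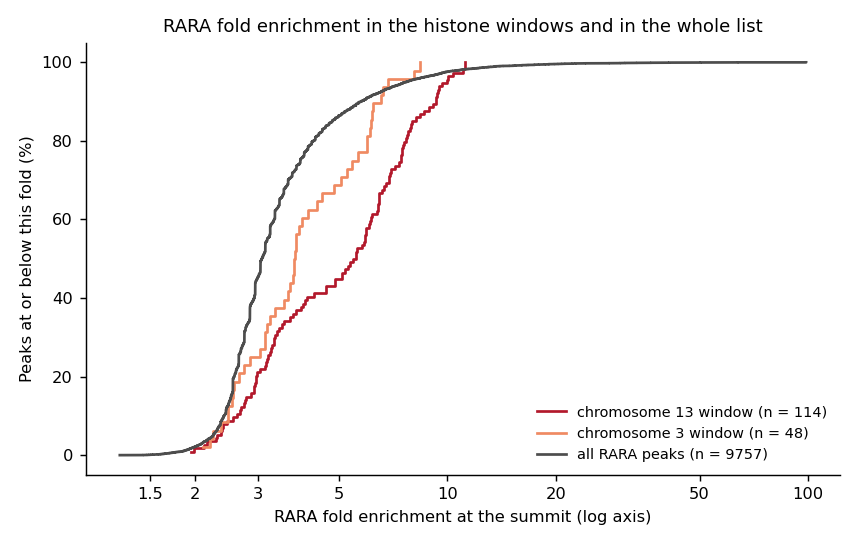
Cumulative share of RARA peaks, in percent, at or below a given fold enrichment (log axis), for the 114 peaks of the chromosome 13 window, the 48 of the chromosome 3 window and all 9757 peaks. Both window curves lie to the right of the whole list between its lower quartile, 2.65, and the start of its top decile, 5.78, and they end at 11.2 and 8.39, where the whole list runs on to 98.7.

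The peaks of the windows were also wider and closer together. Their median width was 329 bp, against 256 bp in the whole list, and they covered 68.0 kb. Several summits were listed in 33 of 162 (20.4%, 14.9 to 27.2%), against 12.9% of all RARA peaks. The median distance from the midpoint of a peak to that of the nearest other peak was 2567 bp in the windows and 18529.5 bp in the whole list. Another peak lay within 50 kb of 158 of 162 (97.5%), against 67.1%, and within 5 kb of 121 of 162 (74.7%), against 31.8%. Input regions of the windows were closer to each other too, with a median distance of 1837 bp, against 2938 bp. The close spacing follows in part from the choice of windows.

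Within the windows the RARA peaks fell into runs, split wherever neighbouring midpoints were more than 200 kb apart. On chromosome 13 there were 3 runs, and every peak of the window belonged to them. The first, from 21252279 to 21418727, held 22 peaks with a median fold of 5.94 (2.29 to 9.41), and 15 of its 33 input regions had an RARA peak. The second, from 21801901 to 22285346, held 43 peaks with a median fold of 5.59 (1.95 to 11.1), and 29 of its 82 input regions had one. The third, from 23262131 to 23856936, held 49 peaks with a median fold of 5.12 (1.99 to 11.2), and 35 of its 110 input regions had one. The 3 runs were alike in fold, and their RARA share of input regions was 45.5% (29.8 to 62.0%), 35.4% (25.9 to 46.2%) and 31.8% (23.9 to 41.0%), with overlapping intervals.

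The stretches between the runs, free of RARA peaks by the way runs were split, held library DNA that was sparser than in the runs. Between the first and the second run lay 383 kb with 28 input regions (7.31 per 100 kb), of median input fold 7.67. Between the second and the third lay 977 kb with 28 input regions (2.87 per 100 kb), of median input fold 6.50. The 3 runs held 19.8, 16.96 and 18.5 input regions per 100 kb, so fewer input regions and no RARA peak went together, and the part of library coverage in the RARA gaps was not tested. Of the 30 bins of 100 kb in the chromosome 13 window, 30 held an input region and 15 held an RARA peak. The densest bin for RARA, from 23500001 to 23600000, held 21 peaks of median fold 6.77, and 14 of its 28 input regions had one. The next, from 22000001 to 22100000, held 17 peaks of median fold 6.45 and 29 input regions, the most for any bin of this window. The GRCm38.p6 gene order also has a long stretch without histone genes, the one with the vomeronasal receptor genes. Whether it is the stretch without RARA peaks was not tested, since coordinates were not converted.

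The chromosome 3 window had a longer run and a short one, both cut by the edges of the window. The first, from 96023090 to 96480371, held 41 peaks of median fold 3.75 (2.11 to 8.39), and 22 of its 115 input regions had an RARA peak (19.1%, 12.99 to 27.3%). The second, from 96886121 to 96965975, held 7 peaks of median fold 4.49, and 4 of its 13 input regions had one. Between them lay 406 kb with 55 input regions (13.6 per 100 kb), against 25.1 and 16.3 per 100 kb in the runs. The densest bin for RARA, from 96100001 to 96200000, held 16 peaks of median fold 3.28. The bin with most input regions of either window, from 96300001 to 96400000, held 34, and 8 of them had an RARA peak.

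**Figure D3:**
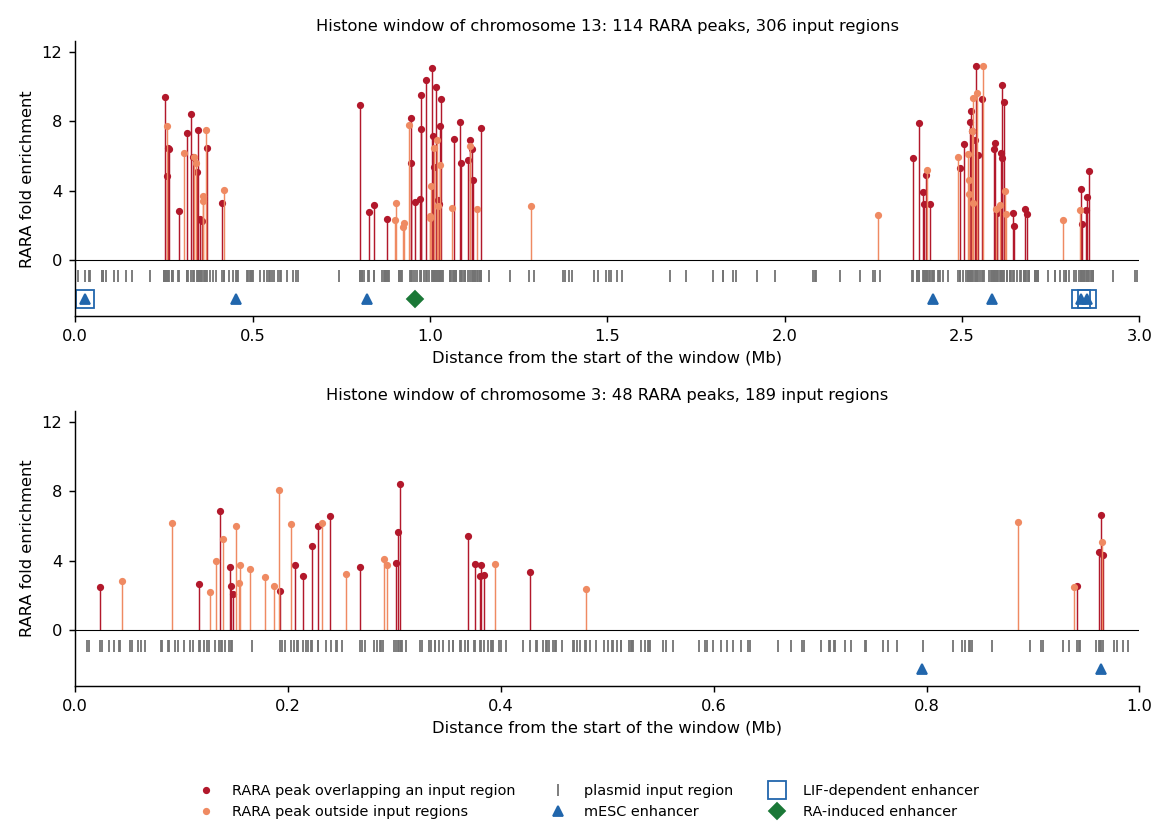
RARA peaks along the histone windows of chromosome 13 (top) and chromosome 3 (bottom). The x axis is the distance from the start of the window in Mb, the height of each stem is the RARA fold enrichment (dark red where the peak overlaps an input region, light where it does not), grey ticks are input regions and symbols at the foot are enhancers. RARA peaks form 3 runs on chromosome 13 and 2 on chromosome 3, while grey ticks continue between them more sparsely.

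The 10 RARA peaks of highest fold in the windows all lay on chromosome 13, with folds from 9.36 to 11.2. An enhancer of any list was overlapped by 0 of the 10, against 2.47% of window RARA peaks and 9.19% of all. At such shares 0 of 10 does not set these peaks apart. The first and second, from 23538459 to 23538891 and from 23558784 to 23559141, had the same fold of 11.2, rank 172 among all RARA peaks. The one starting at 23538459 lay in an input region of 7.43-fold, the other in none. The third, from 22006566 to 22006956, had a fold of 11.1 in an input region of 10.8-fold, and the fourth, from 21988590 to 21989135, a fold of 10.4 in an input region of 12.5-fold. The fifth to eighth had folds of 10.1, 9.96, 9.65 and 9.50 and began at 23613646, 22016542, 23542368 and 21973466. The ninth, from 21252279 to 21253470, had a fold of 9.41 and was the widest of the 10 at 1192 bp, with 4 summits, and the tenth began at 23529806 with a fold of 9.36. In all 3 of the 10 lay outside input regions, while 61.1% of window RARA peaks and 55.6% of all overlapped one.

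Across all window RARA peaks, 99 of 162 overlapped an input region (61.1%, 53.4 to 68.3%), against 55.6% of the whole list, a value inside the interval. The share was 64.0% in the chromosome 13 window (54.9 to 72.3%), against 45.2% on the rest of that chromosome (215 of 476). That rest includes the crowded 1 Mb bins from 65 to 66 and from 66 to 67 Mb. In these bins 9 of 51 and 22 of 94 RARA peaks overlapped an input region, which lowers the share of the rest. In the chromosome 3 window it was 54.2%, against 60.6% on the rest of chromosome 3. Window peaks in library DNA had a median fold of 5.39 (4.09 to 6.07; 99 peaks) and those outside had 3.82 (3.31 to 5.21; 63 peaks), with overlapping intervals. In the whole list the medians were 3.17 and 2.95. On chromosome 3 the medians were alike, 3.76 in library DNA (26 peaks) and 3.79 outside (22 peaks). Where a window RARA peak overlapped an input region, its fold did not go with the input fold (Spearman's rho 0.0413, Pearson's r 0.0424, across 99 pairs that share the cell treatment and, in part, neighbouring DNA; a description). The median distance between the paired summits was 136 bp (quartiles 33.5 and 302 bp). Window input regions with an RARA peak had a median input fold of 6.81 and a median width of 382 bp, against 5.67 and 316.5 bp in those without. In the whole list the gap was wider, with median input folds of 8.14 and 5.40.

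Enhancer activity was rare in this RARA-rich DNA. The mESC share among input regions with an RARA peak was not planned and was added after the data were seen. Of the 105 window input regions with an RARA peak, 3 overlapped an mESC enhancer (2.86%, 0.976 to 8.07%), against 17.1% in the whole series. An enhancer of any list was overlapped by 4 (3.81%, 1.49 to 9.39%), against 17.7%. With the windows pooled, both of these intervals lay below the value of the whole series. By window the mESC share was 2.53% on chromosome 13 (2 of 79; 0.697 to 8.77%) and 3.85% on chromosome 3 (1 of 26; 0.682 to 18.9%). The chromosome 13 interval lay below the 17.1% of the series, while the chromosome 3 interval held it. Outside the windows the mESC share was 20.3% on the rest of chromosome 13 (44 of 217) and 15.4% on the rest of chromosome 3 (37 of 240). In window input regions without an RARA peak, 4 of 390 overlapped an mESC enhancer (1.03%, 0.400 to 2.61%), against 2.03% of all such regions (3681 of 181471), a value inside the window interval. Of all 495 window input regions 7 overlapped an mESC enhancer (1.41%, 0.687 to 2.89%), against 2.47%, again inside the interval. Seen from the peaks, 4 of 162 window RARA peaks overlapped an enhancer of any list (2.47%, 0.964 to 6.18%), against 9.19%. In the quartile of highest input fold, where most enhancers of the series lie, 6 of 150 window regions held an mESC enhancer (4.00%, 1.85 to 8.45%), against 8.12%, a value within the interval. The median mESC enhancer score in the windows, the authors' activity value of unstated scale, was 2.38 (range 1.57 to 4.85), against 2.51 over all mESC enhancers.

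The 9 mESC enhancers of the windows differed widely, with fold enrichments of reporter RNA in LIF over the plasmid input from 4.75 to 40.6. By fold, a pair on chromosome 13 stood above the rest. The first, from 23833872 to 23834243, had a fold of 40.6 (rank 12 of 4674) and a score of 4.85 (rank 2). Its input fold of 4.10 was below the median of all input regions, 5.48. The second, from 23853047 to 23853630, had a fold of 26.4 (rank 86) and a score of 3.56 (rank 353), in an input region of 8.05-fold. Both were LIF-dependent, and they lay within 50 kb of each other in the third RARA run. The remaining 7 had folds of at most 14.0. By score, the chromosome 3 enhancer starting at 96795509 (3.54, rank 366) was close to the second of the pair.

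Of the 9, 3 overlapped a LIF-dependent enhancer (33.3%, 12.1 to 64.6%), against 12.8% of all mESC enhancers. With so few regions the interval holds that value. The LIF over RA fold, the authors' enrichment of merged LIF over merged RA reporter RNA, was 6.13 at the enhancer starting at 23833872 (LIF-dependent region from 23833881 to 23834240) and 2.46 at the one starting at 23853047 (from 23853126 to 23853517). The third LIF-dependent region, from 21027955 to 21028235, had a LIF over RA fold of 8.04. It lay in an mESC enhancer from 21027943 to 21028293 with a fold over input of 14.0 and a score of 2.38, in an input region of 14.8-fold. The nearest RARA summit was 224603 bp away, so it stood outside the RARA runs. An RA-induced region overlapped 0 of the 9, which allows a share of up to 33.3% (3 counts of 9), against 4.17% of all.

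RARA peaks overlapped 3 of the 9 mESC enhancers (33.3%, 12.1 to 64.6%), against 18.5% of all, a value inside the interval. At the enhancer starting at 23833872 the RARA peak had a fold of 4.09 and its summit lay 26 bp from the enhancer summit. At the one starting at 23853047 the RARA fold was 3.67, with summits 487 bp apart and an overlap of 80 bp. The overlap of this peak with the LIF-dependent region there was 1 bp, so it is counted as shared only under the loosest rule. The third, on chromosome 3 from 96963402 to 96963719, had an RARA peak of 6.65-fold with a summit 63 bp away, a fold over input of 8.03 and a score of 2.27. The first and second RARA folds were below the window median of 4.73, and the third was above it.

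The other 5 mESC enhancers overlapped neither an RARA peak nor a changed enhancer. On chromosome 13 the one from 21454481 to 21454744 had a fold of 4.75 and a score of 1.57, and the one from 21821536 to 21821790 had 6.73 and 1.72. The one from 23417859 to 23418137 had a fold of 7.30 and a score of 2.42. The one from 23583871 to 23584158 had a fold of 6.31 and a score of 1.58, although its DNA was the best represented of the windows, with an input fold of 26.0. It had 18 RARA peaks within 50 kb, the nearest summit 5995 bp away. On chromosome 3 the one from 96795509 to 96795689 had a fold of 12.4 and a score of 3.54, and no RARA peak within 50 kb. It and the one starting at 21821536 overlapped no input region, so that 7 of 9 did, against 98.9% of all mESC enhancers.

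The RA-induced enhancer lay on chromosome 13 from 21957288 to 21957663, in the second RARA run, outside the mESC list. Its RA over LIF fold was 5.86, rank 170 of 382, close to the list's median of 5.47, but its −log10 q of 5.25 was below the list's median of 14.9. It lay in a wide input region (868 bp) of low fold, 3.76. The RARA peak there, from 21957297 to 21957727, had a fold of 3.37 and a summit 11 bp from the enhancer summit. There were 14 RARA peaks within 50 kb, so that a peak near a region of this run is common.

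The input region of highest fold in the windows was the one that held the mESC enhancer at 23583871. After it came regions on chromosome 13 from 21598050 to 21598548 (24.6-fold) and from 23493549 to 23494180 (22.6-fold), and on chromosome 3 from 96433532 to 96433948 (21.3-fold) and from 96933388 to 96933747 (21.2-fold). Of these 5, 1 overlapped an RARA peak, the region starting at 23493549, with an RARA fold of 5.30. The 4 after the first overlapped no enhancer, so that 3 of the 5 had neither. In the highest quartile of input fold, 27.3% of window regions and 6.33% of all regions had an RARA peak. An mESC enhancer was overlapped by 4.00% and 8.12% of them. Counts among 5 regions are too few to set them apart from these shares.

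Over the genome, RARA peaks were counted in 2588 bins of 1 Mb that held a region of any of the library, RARA or mESC lists. The 4 bins of the windows held 40, 25, 49 and 48 RARA peaks (ranks 9, 22, 5 and 6), against a median of 2, and 115, 67, 124 and 189 input regions, against a median of 57. By the number of input regions with an RARA peak, they ranked 2, 14, 1 and 3, with 27, 17, 35 and 26, the last of them level with a bin of chromosome 4. The 4 bins with more RARA peaks than any bin of the windows lay on chromosome 4 (145 to 147 Mb) and chromosome 13 (65 to 67 Mb). Their share of input regions with an RARA peak, 25.2 and 24.3% on chromosome 4 and 18.2 and 41.5% on chromosome 13, was as high as the 13.8 to 28.2% of the window bins. Seen from the peaks they differed. Of their 367 peaks 21.8% overlapped an input region (17.9 to 26.3%), against the 61.1% of the histone windows. Their median RARA fold was 2.51 (2.44 to 2.62), and 3 of 367 (0.817%) were in the top decile by fold, where 65 of 162 were in the histone windows. This set of bins was picked for its peak number, after the values were seen.

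**Figure D4:**
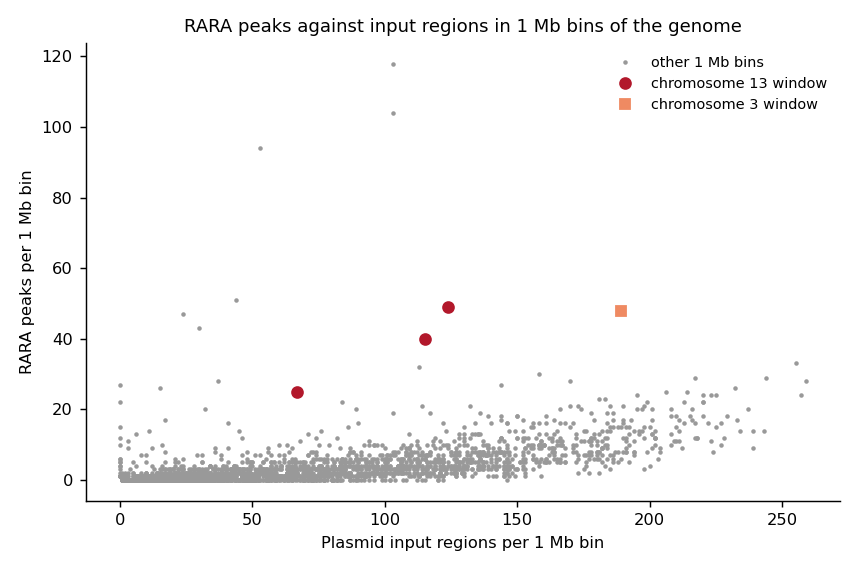
RARA peaks against plasmid input regions in 1 Mb bins of the genome. The 3 bins of the chromosome 13 window (circles) hold 25 to 49 RARA peaks and the bin of the chromosome 3 window (square) 48, against a median of 2 over the 2588 bins. The 4 grey points above them are the bins on chromosomes 4 and 13 named in the text.

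By the same 200 kb rule the edges of the window cut no run on chromosome 13 and cut both runs on chromosome 3. On chromosome 13 the outermost RARA peaks inside were 253 and 143 kb from the edges, with folds of 9.41 and 5.12, and the first ones outside were 1643 and 321 kb away, with folds of 3.53 and 2.84. On chromosome 3 the outermost peaks inside were 23.3 and 34.2 kb from the edges (folds 2.46 and 4.35), and the first outside were 112 and 106 kb away (folds 3.04 and 4.64). The midpoints across these edges were 135 and 139.9 kb apart, so the counts given for the chromosome 3 runs are those inside the window. The RARA ChIP was 1 library, and the signal of its input over these windows was not analysed here, so the part of local background in these folds was not tested.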

How the data were processed

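Peak lists of 1 plasmid library, 3 merged LIF and 3 merged RA reporter samples and 1 RARA ChIP were analysed; samples were grouped by title. The submitters' processing notes name build mm9 and the tools MACS2, Bowtie2, deepTools, SAMtools and UMI-tools, with settings not given in the sources used here. Each deposited list holds, by its column order, a peak score, a fold over control at the summit (ratio), −log10 q and the summit position. The control of the input and RARA calls was not stated. The deposited activity score of mESC enhancers has no stated scale. Without read depths, no error can be set on a single peak's value.

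Rows sharing a region were collapsed to that of highest −log10 q (548 to 495 input rows and 209 to 162 RARA rows in the windows). Coordinates count from 1. The members, lists and the rule for named regions (every window enhancer, the 10 RARA peaks and 5 input regions of highest fold, the densest bins) were chosen with earlier results of these data known. Overlap counting was tested on simulated regions. Alternatives changed overlap, threshold, window, collapsing and distance. Nearest genes were not analysed here. Scripts ran in Python 3.11.15 with SciPy 1.17.1, pandas 2.3.3, Matplotlib 3.10.9 and NumPy 2.4.6.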

Additional observations from a re-analysis of the deposited data

How the results depend on the processing

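Of 61 alternative values for 19 results, 46 stayed within the 95% interval of the reported value, or within 1.5 times a count, and 15 did not. With the chromosome 13 window alone the RARA share of input regions was 25.8%. With the chromosome 3 window alone it was 13.8%, the mESC share 0.529%, the LIF-dependent share of mESC enhancers 0% and the median RARA fold 3.77. With the 50% of each list of higher −log10 q, window members numbered 318 input regions, 4 mESC enhancers and 0 RA-induced enhancers. The median RARA fold was then 5.65 (3.92 in the whole list), the median input fold 7.54 (7.60) and the share of RARA peaks in library DNA 51.9% (46.3%), so that the input fold of the windows was no longer above that of the list. With all deposited rows the median widths were 384 bp for RARA peaks and 362 bp for input regions. With neighbours within 5 kb the shares were 74.7% for RARA peaks (31.8% in the whole list) and 81.4% for input regions (66.8%). Requiring an overlap of 50% of the shorter region left 93 of 495 input regions with an RARA peak (18.8%, against 2.52% in the whole list). It left 2 of 9 mESC enhancers with one (22.2%, against 16.5%). The share of RARA-marked input regions with an mESC enhancer was not planned. It and its alternatives were chosen after seeing the data, and the alternatives ran from 2.15% to 3.85%. The causes of these shifts were not tested. No paired analysis was possible because the lists hold no value per replicate. Counts of 9, 3 and 1 enhancers limit every share among them.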
